A study of Mus musculus with 26 samples.

Results

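The 10 genes described here are genes of the Leydig cell: Star, Cyp11a1, Cyp17a1, Hsd3b1, Hsd3b6, Hsd17b3, Insl3, Lhcgr, Scarb1 and Nr5a1. They were taken as a named list of androgen synthesis enzymes and Leydig cell markers, and 10 of 10 were found among the 21275 genes of the testis table. The testis experiment held 4 RNA-seq libraries, 2 from wildtype testis and 2 from testis of Tex10 conditional knockout (cKO) mice, all labelled C57BL/6N and untreated, with cells from testis as the source. The age of the mice, the allele, the Cre driver and so the cells in which Tex10 was deleted are not given in the sources used here. The labels do not say that the numbered testes came from separate animals, so the p-values measure the spread between these libraries, which may be technical.

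Leydig cells lie between the seminiferous tubules and make the testosterone of the testis. Luteinizing hormone binds its receptor, cAMP rises, cholesterol is carried into the mitochondrion, and a chain of cytochrome P450 and hydroxysteroid dehydrogenase enzymes turns it into androgen. The same cells secrete the peptide INSL3, which is known for its part in testis descent. Because the tissue is a mixture dominated by germ cells, a level in bulk RNA depends on how many Leydig cells a sample holds and on how much RNA each of them carries. Values are relative to the library, so a level also depends on the RNA of the other cells. Most Sertoli markers were higher and most spermatid markers lower in cKO, as given below. More cells of the type, more RNA per cell and less RNA from other cells cannot be told apart here.

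Most of the 10 genes were higher in cKO testis. Of the 10, 8 passed the test as higher and 0 as lower, with log2 fold changes from 0.87 for Star to 2.31 for Lhcgr, while Hsd17b3 (1.06) and Scarb1 (0.08) did not pass. The median log2 fold change over the 10 genes was 1.40, against 0.01 over the 20658 genes tested. Of all genes tested 29.1% were called, 16.1% as higher and 13.1% as lower in cKO. Both cKO libraries lay above both wildtype libraries for 7 of the 10 genes, where 34.8% of all genes tested did so, and below both for 0, where 31.5% did. A call with a log2 fold change of at least 1 upward was made for 6 of the 10 and for 8.26% of all genes tested. Lhcgr passed the filter on low values only through the cKO libraries, and without it 7 of 9 genes were called higher, 6 had groups apart, 5 were called at 1 or more, and the median was 1.25. Calls are at an adjusted p under 0.05 from limma. Fold changes were computed after adding 1 to each value, so those of low genes are understated.

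Values are CPM scaled by TMM (reads relative to the size of the library), called units here, given below in the order wildtype replicate 1, wildtype replicate 2, cKO replicate 1, cKO replicate 2. The libraries held between 6058987 and 7272313 reads in genes, so 1 read was worth between 0.127 and 0.171 units. A floor of 3 reads corresponded to between 0.381 and 0.514 units, which covers counting error only. Tex10 itself was at 79.1, 44.1, 29.8 and 27.3, lower in both cKO libraries (log2 fold change -1.02, SE, the standard error, 0.214, limma adjusted p 0.00318).

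**Figure D1:**
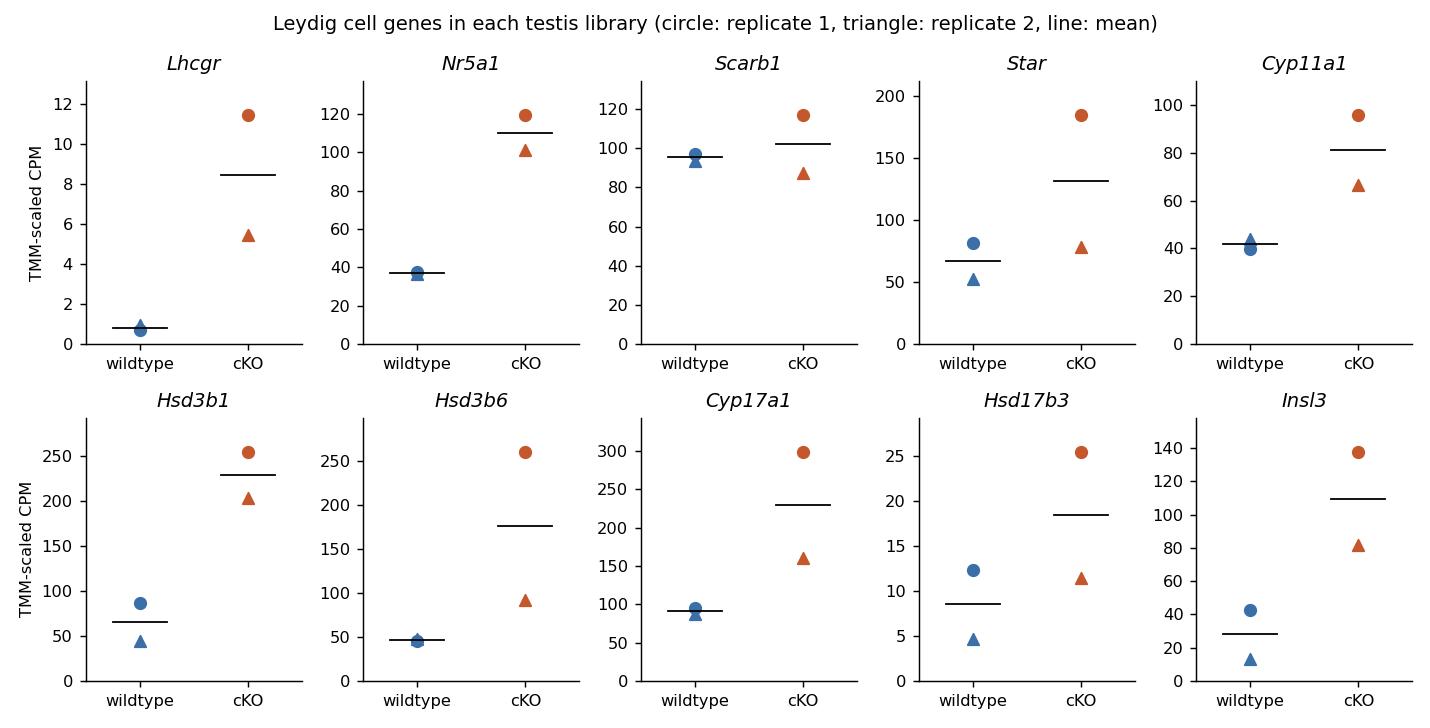
Value of each of the 10 genes in the 4 testis libraries, in TMM-scaled CPM on an axis from 0, with wildtype in blue, cKO in orange, circles for replicate 1, triangles for replicate 2 and a line for the mean of each pair. The groups do not overlap for 7 genes, Scarb1 sits between 87.2 and 116.7 in all libraries, and cKO replicate 1 is above cKO replicate 2 in every panel.

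Some of these genes have neighbours or copies that share sequence with them, which bears on how their reads can be counted. Hsd3b1 and Hsd3b6 lie side by side on chromosome 3 of GRCm38 (the mm10 assembly), at chr3:98852194-98859794 and chr3:98805504-98814443, both on the minus strand. Their coding sequences in GENCODE M21 have 1122 bases each and differ at 112 of them, so 90.0% of the bases are the same. The first 120 coding bases are shown as an example of how the copies differ. Capitals mark the 20 bases that differ. Differences are denser here than over the whole coding sequence, so the stretch overstates how well reads tell the copies apart.
Hsd3b1: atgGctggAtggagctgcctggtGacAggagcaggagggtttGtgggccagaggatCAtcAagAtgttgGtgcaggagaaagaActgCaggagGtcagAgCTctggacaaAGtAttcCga
Hsd3b6: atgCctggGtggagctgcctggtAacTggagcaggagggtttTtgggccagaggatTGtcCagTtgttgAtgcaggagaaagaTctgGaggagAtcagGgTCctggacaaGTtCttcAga
The longest stretch without a difference was 72 bases. Of all 50-base windows of the transcripts, 4.86% of those of Hsd3b1 and 15.6% of those of Hsd3b6 also occurred in a transcript of another gene, and for 100-base windows these shares were 0% and 3.11%. These shares count windows found in any other gene, and Hsd3b2 and Hsd3b3 were among the sharers of both at 50 bases. The coding sequences of the pair had 2 identical stretches of at least 50 bases. How the authors treated reads that match several genes is not given in the sources used here. The count of each gene is therefore uncertain, and how much of this falls on the split between the 2 copies was not computed.

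Insl3 is the other gene with a shared sequence. It lies on chromosome 8, at chr8:71689214-71690575 on the plus strand, within the span of the Jak3 model on the same strand, and 404 bases, 64.8% of its exonic length, are also Jak3 exon. A counter that sets aside reads matching both genes would leave Insl3 with the rest. Whether that was done was not tested. Jak3 was at 3.25, 3.77, 4.88 and 5.21, far below Insl3. The other 7 genes shared at most 2.06% of their 50-base windows with another gene, the highest being Cyp11a1.

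The first step of the pathway is the receptor. Lhcgr, the receptor for luteinizing hormone at chr17:88716481-88791990, was at 0.685, 0.942, 11.4 and 5.46. These are 4, 6, 82 and 43 reads, so the wildtype level rests on 10 reads in all. Both cKO libraries were above both wildtype libraries, and the lower cKO value was 5.80 times the higher wildtype value. Its rise of 2.31 on the log2 scale (SE 0.371, limma adjusted p 0.000622) was the largest of the 10 in this fit. Without wildtype replicate 1, Insl3 and Hsd3b1 rose more than Lhcgr. Lhcgr passed the filter on low values only through the cKO libraries, so its rank and the p-values given here are descriptions. On recovered reads, where no unit is added before the logarithm, edgeR gave 3.34 with an adjusted p of 0.000676.

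Nr5a1, also known as steroidogenic factor 1, is a nuclear receptor that drives the genes of steroid synthesis, and it is made in Sertoli cells as well. It was at 37.7, 36.6, 119 and 101, which is 37.1 ± 0.774 in wildtype and 110.3 ± 12.7 in cKO (SD, n = 2 each). By their ratio, the 2 libraries within each group were closer together than for any other of the 10 genes that rose. Its log2 fold change was 1.54 (SE 0.137), and its limma adjusted p of 2.58e-05 was the lowest of the 10 genes.

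Cholesterol comes next. Scarb1, the scavenger receptor that takes up cholesteryl esters from lipoproteins, was at 97.2, 93.4, 117 and 87.2. One cKO library was above and the other below both wildtype libraries, and the difference was 0.08 on the log2 scale (SE 0.144, limma adjusted p 0.711). The value turned to -0.13 without cKO replicate 1 and was 0.29 without cKO replicate 2. Star moves cholesterol across the mitochondrial membranes, the acute step of hormone control. It was at 82.0, 52.3, 185 and 78.3, so cKO replicate 2 was below wildtype replicate 1 and the groups overlapped.

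Star rose by 0.87 on the log2 scale (SE 0.289, limma adjusted p 0.0365). Without cKO replicate 1 it was 0.25 (limma adjusted p 0.427) and without wildtype replicate 2 it was 0.55 (limma adjusted p 0.111). Leaving out cKO replicate 2 gave 1.48. In these fits with a lone library in a group, that library is assumed to vary like the other group. Star in cKO replicate 1 was 2.36 times its level in cKO replicate 2.

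The enzymes follow in the order of the reactions. Cyp11a1, the side chain cleavage enzyme that makes pregnenolone from cholesterol, was at 39.9, 43.8, 95.6 and 66.6. Both cKO libraries were higher, the lower one by 1.52 times over the higher wildtype value, and the rise was 0.92 on the log2 scale (SE 0.166, limma adjusted p 0.00134).

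Hsd3b1 and Hsd3b6 encode 3-beta-hydroxysteroid dehydrogenases, which convert pregnenolone to progesterone. Hsd3b1 was at 87.1, 43.9, 255 and 204, and Hsd3b6 at 45.0, 47.9, 260 and 91.9. Both rose, with log2 fold changes of 1.86 for Hsd3b1 (SE 0.226, limma adjusted p 0.000119) and 1.72 for Hsd3b6 (SE 0.308, limma adjusted p 0.00127). The copies spread differently: Hsd3b1 differed 1.98-fold between the wildtype libraries and 1.25-fold between the cKO libraries, and Hsd3b6 differed 2.83-fold between the cKO libraries while its wildtype values were nearly equal. Without cKO replicate 1 the log2 fold change of Hsd3b6 was 0.97 (limma adjusted p 0.000224), and without cKO replicate 2 it was 2.46.

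Cyp17a1, whose hydroxylase and lyase activities lead from progesterone to androstenedione, was at 95.2, 87.6, 298 and 160. It rose by 1.25 on the log2 scale (SE 0.205, limma adjusted p 0.000726), and by 0.81 without cKO replicate 1. Hsd17b3, which makes testosterone from androstenedione, was at 12.3, 4.71, 25.5 and 11.4. Wildtype replicate 1 was above cKO replicate 2, so the groups overlapped. At a log2 fold change of 1.06 (SE 0.383) its limma adjusted p was 0.052, just outside the threshold. It was 0.000373 without wildtype replicate 1 (log2 fold change 1.67) and 0.000433 without cKO replicate 2 (log2 fold change 1.60), whereas leaving out either of the other libraries gave a log2 fold change of 0.45 or 0.51.

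Insl3, the peptide hormone, was at 42.8, 13.2, 138 and 81.5. Both cKO libraries were above both wildtype libraries although the wildtype libraries differed 3.25-fold. The rise of 2.10 on the log2 scale (SE 0.365, limma adjusted p 0.00103) was 1.29 without wildtype replicate 2 and 2.91 without wildtype replicate 1.

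**Figure D2:**
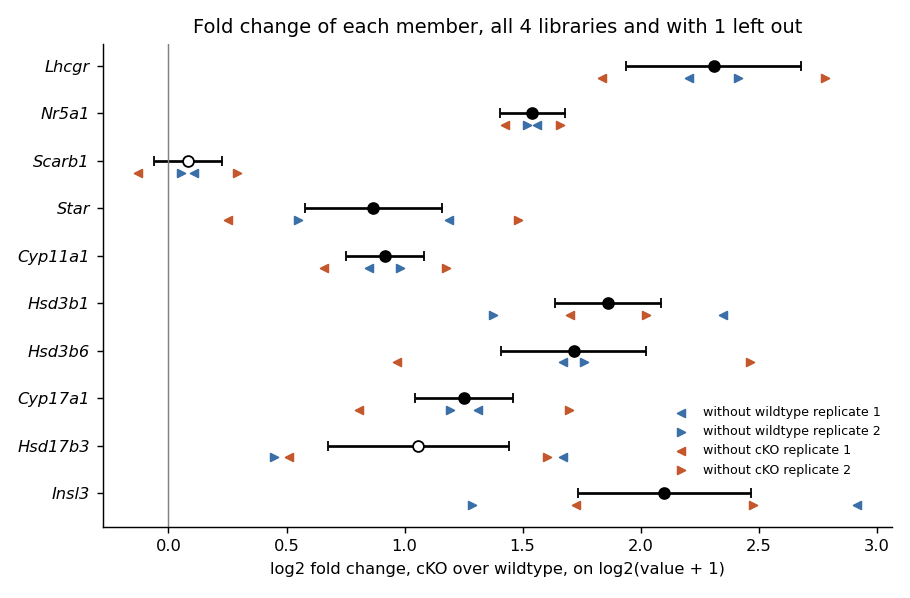
Log2 fold change of cKO over wildtype for each of the 10 genes, with the standard error as a bar, filled circles for an adjusted p under 0.05 and open circles otherwise, and triangles below each for the fit with 1 library left out (blue: a wildtype library, orange: a cKO library). Nr5a1 has the narrowest range of triangles among the genes that rose, and Star spans from 0.25 to 1.48.

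Levels of different genes were set side by side after division by exonic length. The value of Insl3 is uncertain, because reads in the part it shares with Jak3 may have been set aside, which would make it too low. In wildtype, Insl3 had 44.9 units per kb, then came Hsd3b1 (35.3), Cyp17a1 (33.0), Hsd3b6 (25.8), Star (16.3), Scarb1 (11.2), Nr5a1 (8.75), Cyp11a1 (8.71), Hsd17b3 (6.12) and Lhcgr (0.106). Insl3, Hsd3b1 and Cyp17a1 overlapped in their library values, Hsd3b6 lay within the ranges of Insl3 and Hsd3b1, and Nr5a1, Cyp11a1 and Hsd17b3 overlapped with one another. In cKO the order of mean levels per kb was Insl3 (175.8), Hsd3b1 (123.5), Hsd3b6 (97.7), Cyp17a1 (82.8), Star (32.0), Nr5a1 (26.0), Cyp11a1 (16.9), Hsd17b3 (13.3), Scarb1 (12.0) and Lhcgr (1.10). Neighbours in this order overlapped in their library values except at 3 places, namely between Cyp17a1 and Star, between Nr5a1 and Cyp11a1, and between Scarb1 and Lhcgr. The main shift in rank was that of Scarb1, from place 6 to place 9.

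Setting the genes against one another within each library removes what they share. Against the mean log2 level of the other 9 genes, Lhcgr (by 1.04) and Insl3 (by 0.81) stood higher in both cKO libraries than in both wildtype libraries. Scarb1 (-1.43), Star (-0.56) and Cyp11a1 (-0.50) stood lower in both. With 1 library left out the shift of Insl3 was between 0.14 (without wildtype replicate 2) and 1.48 (without wildtype replicate 1), that of Cyp11a1 between -0.81 (without wildtype replicate 1) and -0.19 (without wildtype replicate 2), and that of Star between -0.80 (without cKO replicate 1) and -0.31 (without cKO replicate 2). Lhcgr ranged from 0.69 to 1.39, both with a wildtype library left out, and Scarb1 from -1.64 to -1.23. The remaining 5 genes overlapped between the groups. How often genes in general stand apart on this scale was not computed, so the number that did so here is no result about these genes. With a pseudocount of 0.1 the shift of Lhcgr was 1.85.

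Ratios between genes that act in sequence overlapped between the groups for some pairs and not for others. The log2 ratio of Star to Cyp11a1 was 1.02 and 0.25 in wildtype and 0.94 and 0.23 in cKO. That of Cyp17a1 to Cyp11a1 was 1.23 and 0.98 in wildtype and 1.63 and 1.26 in cKO, higher in both cKO libraries, by 0.34 in the mean and by 0.15 without cKO replicate 1. The ratio of Scarb1 to Star was 0.24 and 0.83 against -0.66 and 0.15. With 2 libraries against 2 an exact two-sided permutation test cannot give a p below 0.333, so these ratios are descriptions.

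**Figure D3:**
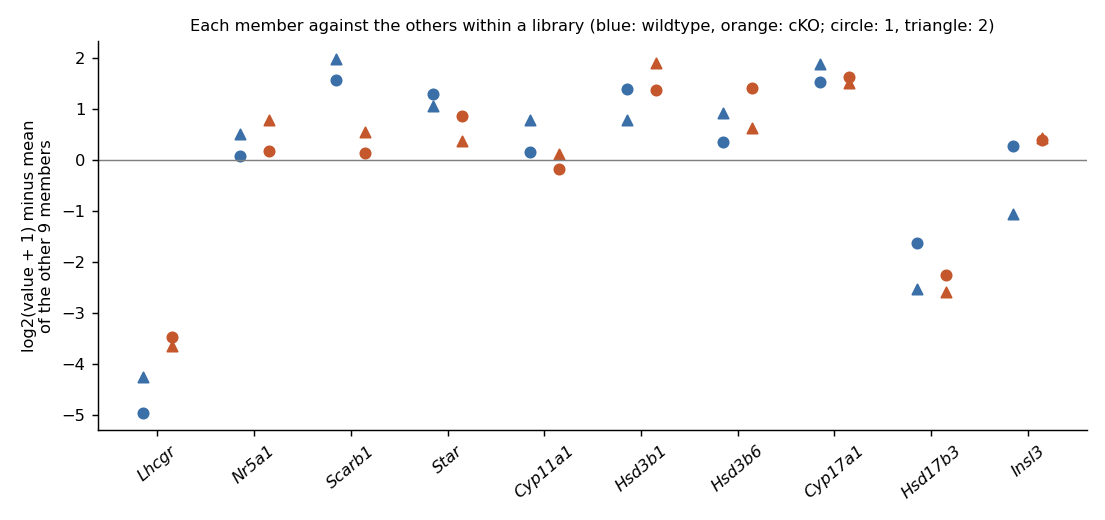
Log2(value + 1) of each gene minus the mean of the other 9 genes in the same library (y axis, log2 units), with wildtype in blue, cKO in orange, circles for replicate 1 and triangles for replicate 2. Scarb1, Star and Cyp11a1 sit lower in both cKO libraries, and Lhcgr and Insl3 sit higher.

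The cKO libraries also differed from each other. All 10 genes were higher in cKO replicate 1 than in cKO replicate 2, as were 54.7% of all genes tested, and the median ratio between these libraries was 1.78 for the 10 genes against 1.02 for all genes tested. In 6 of the 10 the ratio was at least 1.5, where 10.9% of all genes tested reached it. The ratio was 1.18 for Nr5a1 and 1.25 for Hsd3b1, and 2.83 for Hsd3b6 at the other end. Between the wildtype libraries 7 of the 10 genes were higher in replicate 1, as were 50.3% of all genes tested. The ratio of wildtype replicate 1 to replicate 2 was 3.25 for Insl3, 2.62 for Hsd17b3, 1.98 for Hsd3b1 and 1.57 for Star. It was below 1 for Cyp11a1 (0.911), Hsd3b6 (0.941) and Lhcgr (0.727, on 4 and 6 reads). The mean log2 level of the 10 genes was 5.21 and 4.79 in wildtype, against 3.91 and 3.88 for all genes tested.

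Other genes of the Leydig cell were read from lists written from textbook knowledge. Of 9 transcription factors known in these cells 7 rose and 0 fell, where 16.1% of all genes tested were called higher and 13.1% lower. Tcf21 was at 1.88, 4.08, 17.1 and 7.50 (log2 fold change 1.70), Nr2f2 at 5.14, 4.87, 22.6 and 14.5 (1.67), Cebpb at 2.74, 3.14, 10.7 and 8.13 (1.40) and Nr0b1, a repressor of NR5A1 action, at 22.4, 27.5, 65.6 and 57.4 (1.27). All of these had both cKO libraries above both wildtype libraries, and their highest limma adjusted p was 0.00493. Gata4 (1.20) also rose, while Gata6 (0.22) and Lhx9 (0.53) did not pass. Nr0b1 and Gata4 are also made in Sertoli cells.

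Of 6 other Leydig cell markers 5 rose and 0 fell, against 16.1% and 13.1% of all genes tested. Inha, the inhibin alpha subunit, which Sertoli cells also make, was at 87.3, 87.3, 298 and 243 (log2 fold change 1.61). Vcam1 (1.39), Ephx1 (1.37) and the prolactin receptor Prlr (1.35) followed, each with both cKO libraries above both wildtype libraries and a limma adjusted p of at most 0.000777. Akr1b7 was at 7.53, 7.38, 4.74 and 6.48 and did not pass.

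Partners of the enzymes came next. Of 13 steroid partner genes tested 6 were called higher and 0 lower (16.1% and 13.1% of all genes tested). The median log2 fold change was 0.65. Both cKO libraries lay above both wildtype libraries for 9 of the 13, where 34.8% of all genes tested did so. They lay below both for 2, where 31.5% did, namely Cyp19a1 (log2 fold change -0.59) and Srd5a1 (-0.28), which did not pass. Sult1e1, an estrogen sulfotransferase, was at 9.76, 3.14, 33.7 and 16.1 (log2 fold change 1.87). Hsd17b12 (1.34) and Cyb5a (1.21), the cytochrome b5 that assists the lyase step of CYP17A1, rose, and so did Fdxr (1.16), the reductase that passes electrons on to CYP11A1 through ferredoxin. Ferredoxin itself, Fdx1, was at 19.2, 21.8, 33.7 and 20.1 and overlapped between the groups. Por, the reductase for CYP17A1, was at 11.3, 9.10, 16.2 and 13.1 and did not pass (limma adjusted p 0.140). A further 4 genes of this list were not analysed here.

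In cholesterol synthesis 10 of 23 genes rose, 1 fell and 12 did not pass, with a median of 0.44, and of all genes tested 16.1% rose and 13.1% fell. Nsdhl (log2 fold change 1.71), Msmo1 (1.56) and Ebp (1.45) were among those that rose, with limma adjusted p between 0.000729 and 0.000818. Nsdhl was at 4.62, 4.24, 21.9 and 12.7, with both cKO libraries above both wildtype libraries. The 1 gene that fell was Sqle, named after its values were seen, at 125, 133, 92.4 and 88.1.

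Among 13 genes of cholesterol storage and movement 7 rose, where 16.1% of all genes tested did, and 2 fell, which is near the 13.1% of all genes. Apoe was at 114.5, 104.1, 368 and 311 (log2 fold change 1.62, limma adjusted p 1.28e-05). Tspo, a protein of the outer mitochondrial membrane, was at 2.74, 2.83, 14.6 and 6.99 (1.56), and Vdac1 (1.37) and Abca1 (1.27) rose as well. The 2 that fell, named after their values were seen, were Lipe, the hormone-sensitive lipase, at 636, 679, 331 and 316, and Gramd1b, at 247, 287, 203 and 173. Lipe has a form made in spermatids.

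Below the receptor, 3 of 12 genes of cAMP signalling rose, 2 fell and 7 did not pass. With 16.1% of all genes tested called higher and 13.1% lower, these counts are near those of all genes. Prkar2b (log2 fold change 1.64), Gnas (1.32), the stimulatory G protein subunit, and Prkar1a (0.49) rose. Nr4a1, an immediate early gene, was at 63.2, 73.5, 28.7 and 34.6 and fell by 1.09 on the log2 scale (limma adjusted p 0.000284), and the phosphodiesterase Pde8a fell by 0.42. The median of this list was 0.14.

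**Figure D4:**
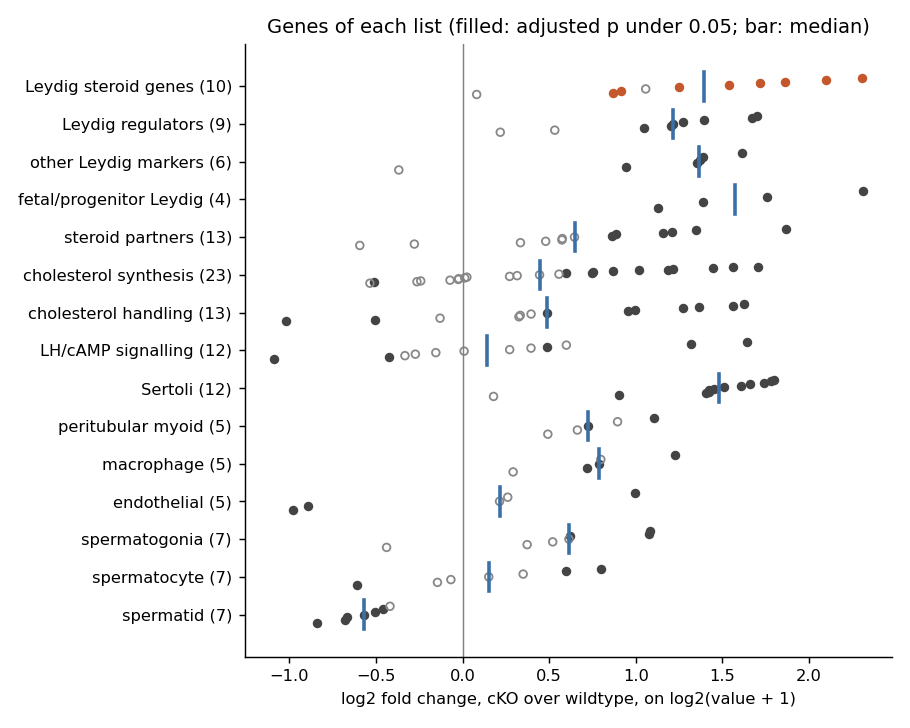
Log2 fold change of cKO over wildtype for every tested gene of each list (number tested in brackets), filled where the adjusted p was under 0.05 and open otherwise, with a bar at the list's median. The 10 Leydig steroid genes (orange, median 1.40) span from 0.08 to 2.31 and the Sertoli genes from 0.18 to 1.80 (median 1.48), and the spermatid genes sit below 0 (median -0.57).

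Among markers of other cells, most Sertoli markers rose as most of the 10 genes did, and most spermatid markers fell. Of 12 Sertoli cell markers 11 rose and 0 fell, against 16.1% and 13.1% of all genes tested, with a median log2 fold change of 1.48, and their summed level was 818 and 711 in wildtype and 2432 and 2069 in cKO. Ctsl (1.74), Clu (1.66), Fshr (1.80) and Amh (1.78) rose most, and Trf, the 1 that did not pass, was between 0.471 and 1.88. The summed level of 7 spermatid markers was 21822 and 24566 in wildtype and 15630 and 16195 in cKO, and 6 of them fell, where 13.1% of all genes tested did, among them Akap4 (-0.84), Prm1 (-0.68), Acrv1 (-0.67) and Tnp1 (-0.57). The part of these cell types in the rise of the Leydig genes was not tested.

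The other lists of cell markers are given with their sums, and 16.1% of all genes tested were called higher and 13.1% lower. Of 5 peritubular myoid markers 2 rose (Acta2 by 1.11 and Myh11 by 0.73), with sums of 43.7 and 35.2 against 66.2 and 76.7, and of 5 macrophage markers tested 3 rose (C1qa by 1.23, Mrc1 by 0.78 and Csf1r by 0.72), with sums over 6 markers of 49.8 and 43.3 against 99.5 and 74.6. Of 5 endothelial markers Cdh5 rose by 1.00, Tek and Vwf fell by 0.98 and 0.89, and the sums were 26.7 and 24.5 against 21.3 and 19.4. Of 7 spermatogonia markers Kit (1.08), which Leydig cells also make, Stra8 (1.08) and Uchl1 (0.62) rose, with sums of 64.5 and 60.0 against 95.3 and 97.5. The other 4 did not pass. Both cKO libraries lay above both wildtype libraries for 6 of the 7, where 34.8% of all genes tested did so. They lay below both for 1, where 31.5% did, namely Gfra1 at 16.1, 13.8, 9.05 and 12.7 (-0.44). Of 7 spermatocyte markers Dmc1 (0.80) and Hormad1 (0.60) rose and Ccna1 (-0.61) fell, with sums of 557 and 552 against 497 and 536. The single fall among the spermatocyte markers is near the share of all genes called lower. No defining marker of the Sertoli, macrophage or myoid list was at 0 in any library.

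The 10 genes were also set against the Sertoli markers of the same library. Their mean log2 level minus that of the 12 Sertoli markers was 0.57 and 0.46 in wildtype and 0.78 and 0.17 in cKO, so the groups overlapped. Taken singly, 6 of the 10 overlapped between the groups on this scale. The share of all genes that overlapped on it was not computed, so this count is no result about the 10 genes. Lhcgr (by 0.90) and Hsd3b1 (by 0.46) stood higher in both cKO libraries, and Scarb1 (-1.32) and Cyp11a1 (-0.49) stood lower in both. With 1 library left out, Hsd3b1 was between 0.13 (without wildtype replicate 2) and 0.78 (without wildtype replicate 1), Cyp11a1 between -0.72 (without wildtype replicate 1) and -0.26 (without wildtype replicate 2), Lhcgr between 0.52 (without cKO replicate 1) and 1.29 (without cKO replicate 2), and Scarb1 between -1.46 and -1.19. The median ratio of cKO replicate 1 to cKO replicate 2 was 1.78 for the 10 genes. It was 1.56 for the 9 Leydig cell transcription factors (9 of them higher in replicate 1). For the 6 other Leydig cell markers it was 1.33 (4 of them higher). The 12 Sertoli markers had 1.16 (10 of them higher) and the 5 macrophage markers tested had 1.40 (5 of them higher). These are descriptions with no test.

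Promoters were read to see whether the genes share a sequence that NR5A1 is known to bind. RefSeq promoters (GRCm38.p6) were given for 6 of the 10 genes, Hsd3b1, Hsd3b6, Insl3, Cyp11a1, Hsd17b3 and Lhcgr, with 2 starts for Cyp11a1. The core letters AAGGTC and AAGGCC were searched on both strands in the 250 bases before each start. Insl3 held 3 matches and Hsd3b6 held 1, and the other 4 genes held none in this window. Of all 32851 promoters 23.3% held at least 1 match. The sequences below are the 150 bases before the first annotated exon base, from chr8:71689064-71689213 for Insl3 (plus strand), chr3:98814444-98814593 for Hsd3b6 and chr3:98859795-98859944 for Hsd3b1 (minus strand). They are shown to let the steroid enzyme copies be compared with the gene that has most matches, and capitals mark the matches.
Insl3: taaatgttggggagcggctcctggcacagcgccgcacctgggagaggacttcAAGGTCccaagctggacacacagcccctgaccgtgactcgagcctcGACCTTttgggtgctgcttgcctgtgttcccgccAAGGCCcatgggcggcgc
Hsd3b6: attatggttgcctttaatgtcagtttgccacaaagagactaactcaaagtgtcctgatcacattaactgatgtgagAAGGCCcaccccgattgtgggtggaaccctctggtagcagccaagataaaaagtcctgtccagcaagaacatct
Hsd3b1: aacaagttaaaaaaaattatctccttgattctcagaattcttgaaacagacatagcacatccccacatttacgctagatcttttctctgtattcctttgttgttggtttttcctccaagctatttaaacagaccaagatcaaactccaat
Insl3, Hsd3b6 and Hsd3b1 all rose, with log2 fold changes of 2.10, 1.72 and 1.86. A match is a description of letters and not of binding. The GATA letters AGATAA, searched likewise on both strands, occurred in Hsd3b6 and Hsd3b1 (9.99% of all promoters). The letters TGACG of the cAMP response element occurred before 1 of the Cyp11a1 starts (17.8% of all promoters), within chr9:57997774-57998073. That start lies outside the GENCODE model of Cyp11a1 used here for its length, chr9:58006411-58027023.

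The authors' deposited table carried its own comparison of cKO with wildtype. In it 9 of the 10 genes had an FDR under 0.05, all higher in cKO. Of the 21275 genes, 6526 (30.7%) had such an FDR, 3634 of them higher in cKO. Hsd17b3 had a log2 fold change of 1.12 and an FDR of 0.0378 in the authors' deposited table, and Scarb1 had 0.10 and 0.698. Without a mean-variance trend in limma, 3 of the 10 genes were called, namely Hsd3b1, Lhcgr and Nr5a1. The limma adjusted p was then between 0.0593 and 0.226 for the other 5 that had been called. Of the 20658 genes tested, 2135 were called in that fit, 1660 of them higher. DESeq2 on recovered reads called 6 of the 10 genes and 4351 of the 20658 genes tested, 2124 of them higher. The DESeq2 adjusted p was 0.0726 for Insl3 and 0.313 for Star.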

How the data were processed

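RNA from 4 testis samples was taken up in Trizol and made into libraries with a NuGEN Ovation kit, per the labels. The submitters' processing notes name Bowtie2 2.3.4.3, SAMtools 1.9, HTSeq 0.11.2, edgeR 3.26.8 and the mm10 genome, with no role or order. The annotation, strand setting and treatment of ambiguous reads are not given in the sources used here. The deposited values are a signal scaled by TMM (trimmed mean of M values), per the name the authors gave the table. Every value was within 0.01 of a whole multiple of a step of its library, so whole reads were recovered for 100% of values. The authors deposited log2 fold changes, p-values and FDR of their own comparison, used only side by side.

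Genes with a mean of at least 1 (20658 of 21275) were tested with limma 3.58.1 in R 4.3.3 on log2(value + 1), with a mean-variance trend and Benjamini-Hochberg adjustment over all genes tested. Data were simulated for this comparison over 20538 genes, with 1 dispersion shared by all genes. In them 200 genes, drawn from those with a mean of at least 5, were changed up or down. There limma recovered 67% of 100 genes changed by 1 and 100% of 100 genes changed by 2 on the log2 scale. It made 12 false calls. Spread differs between genes in the measured libraries, so these shares are no estimate for the 10 genes. edgeR 4.0.16 and DESeq2 1.42.0 were run on recovered reads as alternatives. Exonic lengths, overlaps and coding sequences came from GENCODE M21 (GRCm38), promoters from RefSeq. The 10 genes and the lists were chosen with earlier results of these data known. All 10 genes are named, and of each other list up to 4 called genes with the largest change, or the 2 with the highest level where none was called, except that some genes of these lists are counted but not reported here by name. Gata4, Gata6, Lhx9, Akr1b7, Fdx1, Por, Cyp19a1, Srd5a1, Trf, Sqle, Lipe, Gramd1b, Pde8a and Gfra1 fall outside this rule and were chosen after their values were seen. The tables of the cell culture experiments were not used here.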

Additional observations from a re-analysis of the deposited data

How the results depend on the processing

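The direction of the 10 genes held under all alternatives run except for Scarb1, which ranged from -0.13 without cKO replicate 1 to 0.29 without cKO replicate 2. The number of genes called was 6016 and moved to 2135 without the variance trend (77.8% higher, against 55.1%) and to 1978 when calls also had to reach 1 in log2 size (86.2% higher). DESeq2 on recovered reads called 4351 genes, 2124 higher and 2227 lower (48.8% higher), so the balance turned. Leaving out each library in turn gave between 3148 and 6085 genes. Of the 10 genes, 8 were called, against 3 without the variance trend and between 7 and 9 with a library left out. Their median log2 fold change of 1.40 was between 0.89 and 1.68 with a library left out, the lowest without cKO replicate 1, where the fewest genes were called among the 4 such fits. The causes were not tested. Replicate numbers are shared between the groups, but the labels do not say that a number marks an animal, litter or day. The deviations of wildtype replicate 1 and cKO replicate 1 from their group means correlated at 0.116 over 20658 genes. With 2 libraries per group, replicate 2 only mirrors replicate 1. With the replicate block, 7185 genes and 9 of the 10 were called, Hsd17b3 among them (limma adjusted p 0.00115). Median-ratio scaling called 8 of the 10 and 6019 genes in all. Quantile normalization called 7 of the 10 and 4891 genes in all, Star being the one lost (limma adjusted p 0.0530). Both moved the median of all genes by less than 0.1. With the filter at a mean of 5, Hsd17b3 passed (limma adjusted p 0.0480) and Lhcgr was not tested. The wildtype level of Lhcgr rests on 10 reads. Counting the genes without Lhcgr and leaving libraries out of the ratios were chosen after seeing the data.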

Other observations

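Some genes used as markers of fetal or progenitor Leydig cells were also higher in cKO testis. Of the 4 tested, Pdgfra and Ptch1 rose, and so did Dlk1 and Gli1, which passed the filter on low values only through the cKO libraries and are no support for a count. Pdgfra, the platelet-derived growth factor receptor, was at 6.16, 5.81, 39.3 and 28.8 (log2 fold change 2.31, limma adjusted p 3.55e-05), Dlk1 at 0, 0.942, 3.62 and 3.81 (1.76), Gli1 at 0.685, 0.471, 3.62 and 2.67 (1.39) and Ptch1, the hedgehog receptor, at 6.51, 9.42, 19.8 and 17.0 (1.13). Of all genes tested 16.1% were called higher. Dlk1 and Gli1 rest on few reads. A further 3 genes of this list were not analysed here.

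Enzymes that mark the adrenal cortex did not pass the test in either direction. Cyp21a1 was at 5.99, 2.98, 6.69 and 4.83 and Cyp11b1 at 4.45, 1.88, 1.81 and 4.96, with overlapping groups, limma adjusted p of 0.482 and 0.951, and log2 fold changes of 0.34 and 0.05. The summed level of the 3 adrenal enzymes was 13.5 and 6.12 in wildtype and 9.47 and 12.1 in cKO. The 5 epididymis markers that were listed were not analysed here.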
